A study of Mus musculus with 6 samples.

Results

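Replication-dependent histone genes encode the core histones H2A, H2B, H3 and H4 and the linker histone H1. They were taken here as every row of the mRNA table whose symbol begins with Hist1h, Hist2h, Hist3h or Hist4h, which gave 68 of 22564 protein-coding genes. The 68 comprised 6 H1, 19 H2A, 18 H2B, 12 H3 and 13 H4 genes. Of these, 55 lay in the Hist1 cluster on chromosome 13, 10 in Hist2 on chromosome 3, 2 in Hist3 on chromosome 11 and 1 in Hist4 on chromosome 6.

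The tissue was lung of young adult male C57BL/6 mice. In the PBLI group, anesthetized mice received a shock wave with a peak of 0.5 bar from a small shock tube, a model of primary blast lung injury. In the control group, mice were anesthetized and not exposed. Lungs were taken at 6 h, and right upper lobes of 2 mice were pooled for each library, which gave 3 PBLI pools (G3, G4 and G5) and 3 control pools (Control 1, 2 and 3). Replication was thus at the level of pools (n = 3 in each group), and no mouse was measured alone. RNA was depleted of rRNA and sequenced as total RNA, so transcripts without a poly(A) tail were kept.

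Histone proteins wrap DNA into nucleosomes, and a dividing cell has to double them during S phase. Replication-dependent histone genes, as a class, are switched on at the start of S phase and supply that demand. Their mRNAs are the known exception among animal mRNAs in ending in a stem-loop rather than a poly(A) tail. The stem-loop is bound by SLBP, cut with the help of the U7 snRNP, and used again when the mRNAs are degraded at the end of S phase. The set here was taken by symbol, so it also holds genes that need not follow this pattern, such as Hist1h1t, the testis H1 gene. Replacement histones such as H3f3a and H2afz are made outside S phase from polyadenylated mRNAs. In adult lung few cells divide, so the levels of these mRNAs are usually read together with those of other S phase and mitotic genes. In whole tissue, fewer cells of a type and less RNA per cell cannot be told apart.

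The stem-loop is shown for a few members because it is the feature that sets these mRNAs apart. Within 150 bases after the stop codon, the 16-base histone stem-loop consensus was found in 63 of 67 members with RefSeq coordinates, on the coding strand. The same search found it in 6 of 21707 other coding genes (0.0276%). It began 21 to 58 bases after the stop codon, with a median of 31. The sequences below, from RefSeq on GRCm38, carry the 16 stem-loop bases in capitals.
Hist1h2bm: caaaGGCTCTTTTCAGAGCCactaag
Hist1h2bp: caaaGGCTCTTTTCAGAGCCacccac
Hist1h3c: aaaaGGCTCTTTTAAGAGCCacctaa
Hist1h3g: taaaGGCTCTTCTTAGAGCCacccat
Hist2h2ac: aaaaGGCTCTTTTTAGAGCCaccaaa
Hist1h4d: caaaGGCCCTTTTCAGGGCCactacc
Hist1h4a: caaaGGCCCTTCTCAGGGCCgcccac
These lie at chr13:21722502-21722527 (plus strand), chr13:21787919-21787944 (plus), chr13:23745041-23745066 (minus), chr13:23535885-23535910 (plus), chr3:96220412-96220437 (minus), chr13:23581946-23581971 (plus) and chr13:23760794-23760819 (minus). The form of Hist1h2bm and Hist1h2bp was shared by 39 members of the H1, H2A, H2B and H3 families. The form of Hist1h3c was shared by 9 members, and that of Hist1h4d by 8 members, all of them H4 genes. The forms of Hist1h3g, Hist2h2ac and Hist1h4a each had 1 member. Hist2h2be, Hist1h2bq, Hist1h2br and Hist1h2an held no match in this window.

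Promoters are shown for Hist1h2bm, the member with the highest ratio of Control 1 to the next library, and Hist1h4d, the most abundant member. Each sequence runs from 250 bases before to 50 bases after the RefSeq start (GRCm38.p6, plus strand, chr13:21721794-21722093 and chr13:23581318-23581617). Capitals mark ATTTGCAT (the octamer, a binding motif of OCT1), CCAAT (a binding motif of NF-Y) and TATAAA, on either strand.
Hist1h2bm: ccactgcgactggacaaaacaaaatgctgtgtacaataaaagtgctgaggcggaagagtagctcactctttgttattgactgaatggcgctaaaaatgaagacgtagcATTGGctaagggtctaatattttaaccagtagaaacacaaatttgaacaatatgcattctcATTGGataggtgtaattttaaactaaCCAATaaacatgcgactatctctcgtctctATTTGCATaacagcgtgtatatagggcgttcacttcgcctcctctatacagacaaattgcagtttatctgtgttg
Hist1h4d: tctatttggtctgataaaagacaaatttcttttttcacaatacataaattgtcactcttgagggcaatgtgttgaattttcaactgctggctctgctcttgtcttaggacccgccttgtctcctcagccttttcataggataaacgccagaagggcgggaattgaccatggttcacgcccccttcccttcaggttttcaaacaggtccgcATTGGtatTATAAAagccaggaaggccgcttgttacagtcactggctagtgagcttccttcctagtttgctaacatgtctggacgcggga
None of these motifs contains another, and a match is a description of letters only. Among 62 members with a promoter in the RefSeq table, the octamer was present in 7 of 18 H2A and 7 of 16 H2B genes, in none of the 6 H1, 10 H3 and 12 H4 genes, and in 1.74% of all 32851 promoters of this length. CCAAT was present in all H1, H2A, H2B and H3 promoters and in 3 of 12 H4 promoters, against 37.4% of all promoters. TATAAA was present in 40% to 66.7% of the promoters of each family, against 13.6% of all. Promoters of H2A and H2B genes that start close together on opposite strands overlap, such as those of Hist1h2ah and Hist1h2bk. There, 1 match can count for both genes, so the H2A and H2B counts are not separate.

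Levels were given by the authors as FPKM, the number of fragments scaled to transcript length and library size. The number of fragments per library is not used here, and depth was read only in relation to Control 1, from the commonest ratio between libraries among genes of low FPKM. It was 1.24 to 1.60 in the PBLI libraries and 0.995 to 1.15 in the control libraries, with 21 to 103 genes at that ratio in each library. Of the 68 members, 63 reached 0.5 FPKM in at least 1 library and were tested, and 2 of these (Hist1h2ai and Hist1h2ap) reached it through Control 1 alone. Hist1h2ac and Hist1h2ba reached it in more than 1 library, but in control libraries alone, and Hist2h2aa1 in PBLI libraries alone. Hist1h1t, the testis H1 gene, and Hist1h2bq stayed below the limit, and Hist1h2aa, Hist1h2al and Hist1h2br were listed at 0 in every library. Levels varied widely, and 11 tested members averaged under 1 FPKM, where few fragments stand behind a value, while 12 averaged at least 20 FPKM. Histone copies are also alike, and 49 of 67 members shared at least 1 stretch of 150 coding bases with another member, so reads of those members may have been split between copies.

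Control 1 stood apart in these genes, and the fold changes below are given with and without it. Control 1 was the highest of the 6 libraries in 55 of 63 members, against 20.7% of all 14760 genes tested. In 32 of 63 members (50.8%) its FPKM was at least 2 times the highest of the other 5 libraries, against 278 of all genes (1.88%), a limit chosen after the values were seen. The 32 include Hist1h2ai and Hist1h2ap, which passed the filter on low values through Control 1 alone. No other library was the highest by that margin in any member. On the log2(FPKM + 0.5) scale, Control 1 minus the median of the other libraries had a median of 1.32 over the members and of 0.00415 over all genes. PBLI G5 also stood apart from the other libraries over all genes, being at least 2 times the others in 236 genes and at most 1/2 of the others in 422. Among the members PBLI G5 was the lowest library in 24 of 63, against 29.0% of all genes, and the highest in 1, against 24.5% of all genes.

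The summed level of the 68 members showed the same library. Summed FPKM was 914, 959 and 793 in PBLI G3, G4 and G5, against 1667, 806 and 860 in Control 1, 2 and 3. Only Control 1 was above 1000. The means were 889 ± 85.7 FPKM in PBLI and 1111 ± 482 FPKM in control lung (SD, n = 3 each), a ratio of 0.80, and without Control 1 the control mean was 833 and the ratio 1.07.

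**Figure D1:**
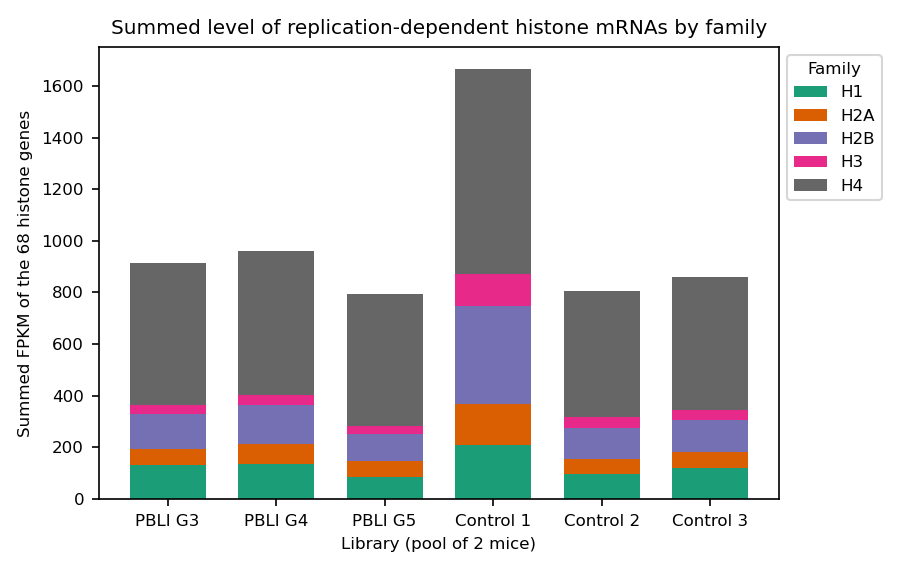
Summed FPKM of the 68 histone genes in each library, stacked by family (bars start at 0; 1 bar per pool of 2 mice, PBLI left and control right). The 3 PBLI bars reach 914, 959 and 793, Control 1 reaches 1667 and the other control bars reach 806 and 860.

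Summed by family, Control 1 was highest in all 5 families. H3 genes summed to 32.5, 40.5 and 30.5 FPKM in the PBLI libraries, against 126, 41.8 and 38.4 FPKM in the control libraries, so Control 1 was 3.01 times the highest other library. H2B genes summed to 137, 147 and 107 FPKM in PBLI, against 379.8, 122 and 124 FPKM in control, a Control 1 ratio of 2.58. For H2A the sums were 62.2, 77.4 and 62.1 FPKM in PBLI, against 158, 56.0 and 61.4 FPKM in control, and the ratio was 2.04. H1 genes gave 131, 138 and 84.4 FPKM in PBLI, against 209, 97.4 and 122 FPKM in control, with a ratio of 1.52. H4 genes gave 551, 556 and 509 FPKM in PBLI, against 795, 488 and 515 FPKM in control, with a ratio of 1.43. These sums are carried by a few abundant members, and the order differed per member. The median of Control 1 minus the median of the other libraries, on the log2(FPKM + 0.5) scale, was 1.32 for H1, 1.18 for H2A, 1.69 for H2B, 1.32 for H3 and 0.93 for H4 genes. Control 1 was at least 2 times every other library in 3 of 5 H1, 8 of 17 H2A, 11 of 16 H2B, 7 of 12 H3 and 3 of 13 H4 genes. The 8 H2A genes include Hist1h2ai and Hist1h2ap, which passed the filter on low values through Control 1 alone. Among the other 5 libraries, the highest sum was 1.14 to 1.63 times the lowest in each family.

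**Figure D2:**
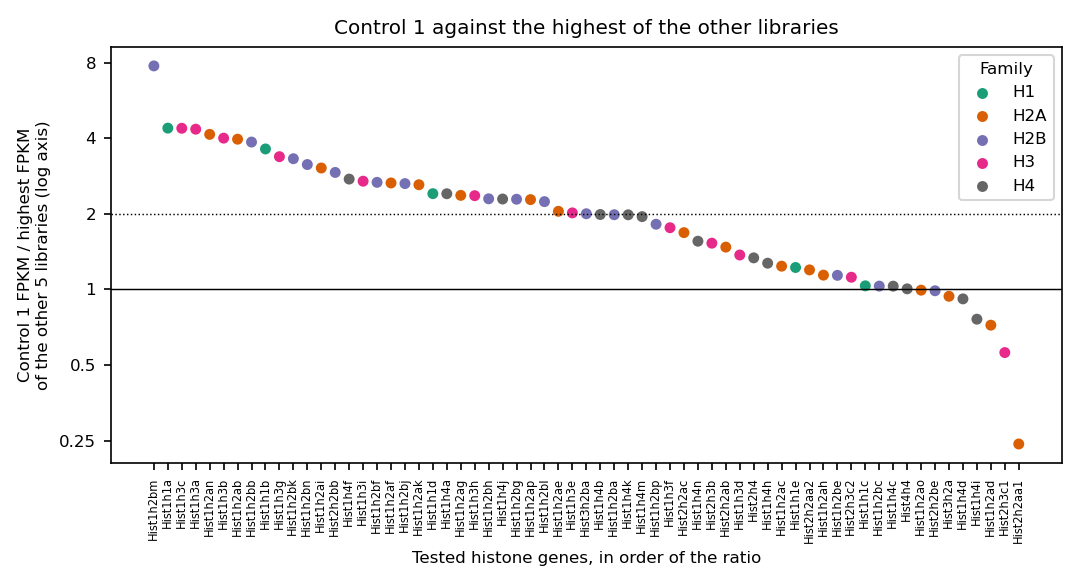
Control 1 FPKM divided by the highest FPKM of the other 5 libraries (log axis) for each of the 63 tested histone genes, coloured by family, in order of the ratio (solid line 1, dotted line 2). The ratio runs from 7.76 in Hist1h2bm to 0.242 in Hist2h2aa1, and 32 genes lie at or above 2.

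Individual members ranged from several-fold higher in Control 1 to level with the rest. Hist1h2bm, an H2B gene, had 2.52, 3.77 and 3.37 FPKM in the PBLI libraries, against 29.4, 3.79 and 2.77 FPKM in the control libraries. Control 1 was 7.76 times the next library, and the other 5 libraries lay close together. Hist1h1a, a linker histone gene, had 3.71, 5.69 and 3.92 FPKM in PBLI, against 25.0, 4.25 and 5.53 FPKM in control. Hist1h3a had 2.29, 2.98 and 2.74 FPKM in PBLI, against 13.0, 2.61 and 2.27 FPKM in control. In both genes the PBLI libraries lay among Control 2 and 3 or near them, with Control 1 more than 4 times above.

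The most abundant H1 genes were Hist1h1e and Hist1h1c. Hist1h1e had 61.8, 58.9 and 39.2 FPKM in PBLI, against 75.6, 40.5 and 55.7 FPKM in control. Hist1h1c had 55.4, 57.9 and 32.4 FPKM in PBLI, against 59.8, 38.4 and 46.6 FPKM in control. The groups overlapped in both, and PBLI G5 was the lowest library. Hist1h1b, which ranked next, had 5.54, 9.72 and 5.56 FPKM in PBLI, against 35.2, 9.35 and 8.45 FPKM in control. Its log2 fold change was -1.02 ± 0.51 (SE, adjusted p = 0.32 by limma) and -0.38 ± 0.27 without Control 1.

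Among H2A genes Hist2h2ac was highest, with 25.9, 27.0 and 26.8 FPKM in PBLI, against 45.5, 18.8 and 25.3 FPKM in control. Hist3h2a had 15.1, 15.6 and 9.31 FPKM in PBLI, against 14.6, 10.6 and 12.0 FPKM in control, so Control 1 was not the highest library. Hist1h2ak had 6.29, 12.2 and 9.53 FPKM in PBLI, against 32.0, 7.70 and 8.55 FPKM in control. The PBLI libraries enclosed Control 2 and 3 in this gene. No H2A gene of this rank passed the test, with log2 fold changes of -0.07 ± 0.28, 0.08 ± 0.22 and -0.49 ± 0.51 (SE). Without Control 1 they were 0.28 ± 0.14, 0.20 ± 0.24 and 0.15 ± 0.27, so the sign turned in Hist2h2ac and Hist1h2ak.

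The leading H2B gene was Hist1h2bc, with 39.6, 36.7 and 26.6 FPKM in PBLI, against 40.8, 27.1 and 37.0 FPKM in control. Hist2h2bb had 22.2, 22.0 and 17.6 FPKM in PBLI, against 64.9, 21.8 and 17.2 FPKM in control. Hist1h2bg had 16.7, 18.4 and 14.5 FPKM in PBLI, against 42.1, 15.4 and 11.2 FPKM in control. Control 1 was thus level with the top PBLI library in Hist1h2bc and 2.92 and 2.29 times the next library in the other 2 genes. Their log2 fold changes were -0.03 ± 0.20, -0.50 ± 0.44 and -0.23 ± 0.43 (SE), and none passed the test. Without Control 1 they were 0.09 ± 0.21, 0.08 ± 0.16 and 0.32 ± 0.18, and all 3 signs turned.

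H3 genes were the least abundant family, with means of at most 7.66 FPKM over the 6 libraries. Hist1h3c had 3.85, 4.93 and 3.35 FPKM in PBLI, against 24.0, 5.48 and 4.33 FPKM in control. Hist1h3i had 2.45, 7.18 and 3.05 FPKM in PBLI, against 19.4, 6.24 and 5.79 FPKM in control. Hist1h3e had 4.93, 5.92 and 3.65 FPKM in PBLI, against 12.0, 5.94 and 5.01 FPKM in control. Control 1 was highest in all 3, at more than 2 times every other library.

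H4 genes included the most abundant members. Hist1h4d had 280.4, 226 and 250.0 FPKM in PBLI, against 257, 218 and 229 FPKM in control. It averaged 252 ± 27.1 FPKM in PBLI and 235 ± 20.1 FPKM in control lung (SD, n = 3 each), so the groups differed by less than their spread. Hist1h4h had 64.2, 78.5 and 62.5 FPKM in PBLI, against 99.9, 62.1 and 65.1 FPKM in control. Hist1h4c had 64.0, 69.8 and 74.1 FPKM in PBLI, against 77.4, 75.2 and 62.4 FPKM in control. In Hist1h4d and Hist1h4c Control 1 was level with the rest. In contrast, Hist1h4f had 22.8, 32.4 and 17.9 FPKM in PBLI, against 89.2, 24.4 and 28.2 FPKM in control.

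**Figure D3:**
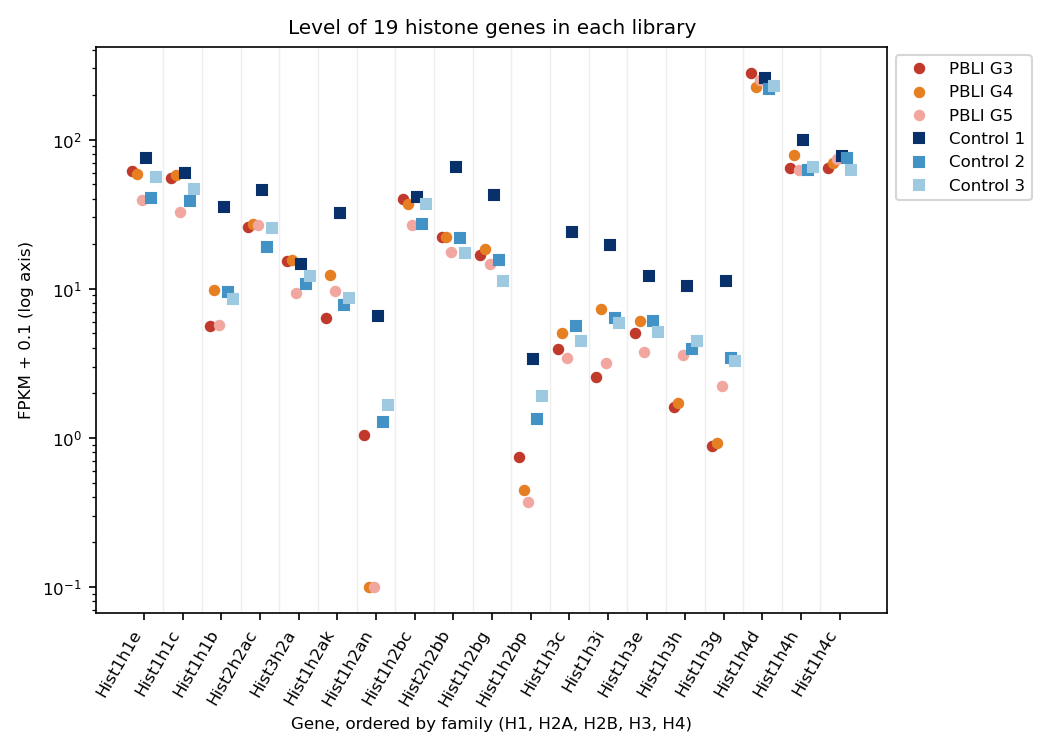
FPKM + 0.1 (log axis) of 19 histone genes in each library, circles for the 3 PBLI libraries and squares for the 3 control libraries, with Control 1 in the darkest blue. Control 1 lies well above the other libraries in genes such as Hist1h3c (24.0 FPKM) and within them in Hist1h4d (257 FPKM).

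PBLI was then compared with control by limma over all 14760 genes tested. No member passed an adjusted p of 0.05, against 0.928% of all genes lower and 1.15% higher in PBLI. At an unadjusted p under 0.05, 4 members were lower (10.0% of all genes) and 1 was higher (9.15% of all genes). The log2 fold change was below 0 in 56 of 63 members, against 52.9% of all genes, with a median of -0.49 against -0.02 over all genes. Without Control 1 it was below 0 in 32 of 63 members, against 52.4% of all genes, with a median of -0.0029, and no member passed an adjusted p of 0.05, against 0.0745% of all genes lower and 0.271% higher. Without PBLI G5 it was below 0 in 49 of 63, with a median of -0.30 against -0.0094 over all genes. Among the 56 members below 0 with all libraries, Hist1h2ac, Hist1h2ai, Hist1h2ap and Hist1h2ba passed the filter through control libraries alone. Of these, Hist1h2ac, Hist1h2ap and Hist1h2ba are also among the 32 below 0 without Control 1. The members' median was thus near 0 once Control 1 was left out. The 4 members described next had fold changes below 0 without it as well. That sign had to follow, because every PBLI library lay below every control library in these 4, so it is no separate check.

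Only 4 members passed both thresholds used in the study (a 2-fold change or more, with an unadjusted p not above 0.05), and all 4 were lower in PBLI (6.35% of the 63, against 1.17% of all genes). None was higher, against 1.38% of all genes. The same 4 were the members whose groups did not overlap with PBLI below control, a pattern met by 14.4% of all genes, and no member lay wholly above control, against 13.3% of all genes. All 4 lie in the Hist1 cluster, and none averaged above 5 FPKM. Without Control 1, 3 of the 63 were lower at the same thresholds, against 1.17% of all genes, and 1 (Hist2h2aa1) was higher, against 1.23% of all genes.

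Hist1h3g, an H3 gene at chr13:23535418-23535909, had 0.774, 0.825 and 2.14 FPKM in PBLI, against 11.2, 3.31 and 3.17 FPKM in control. Every PBLI library was below every control library, with PBLI G5 the nearest. The log2 fold change was -1.73 ± 0.50 (SE, adjusted p = 0.13 by limma) and -1.18 ± 0.36 without Control 1 (adjusted p = 0.24).

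Hist1h3h, an H3 gene at chr13:21717628-21718115, had 1.5003, 1.60 and 3.49 FPKM in PBLI, against 10.3, 3.83 and 4.34 FPKM in control. PBLI G5 lay just under Control 2, and the other PBLI libraries were lower. The log2 fold change was -1.25 ± 0.41 (SE, adjusted p = 0.17 by limma) and -0.84 ± 0.34 without Control 1 (adjusted p = 0.33). Hist1h3h shared 90.5% of its 150-base coding windows with other members, and Hist1h3g 37.8%.

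Hist1h2bp, an H2B gene, had 0.648, 0.345 and 0.269 FPKM in PBLI, against 3.27, 1.24 and 1.80 FPKM in control. The groups were apart, and every value was below 4 FPKM. Its log2 fold change was -1.44 ± 0.33 (SE, adjusted p = 0.079 by limma), the smallest p of any member, and -1.14 ± 0.27 without Control 1 (adjusted p = 0.17). Hist1h2an, an H2A gene that starts 235 bases from Hist1h2bp on the other strand, had 0.938, 0 and 0 FPKM in PBLI, against 6.43, 1.18 and 1.55 FPKM in control. It was listed at 0 in PBLI G4 and G5. The log2 fold change was -2.02 ± 0.62 (SE, adjusted p = 0.15 by limma) and -1.38 ± 0.51 without Control 1 (adjusted p = 0.30). Hist1h2bp shared 54.3% of its 150-base coding windows with other members, and Hist1h2an 72.5%.

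The 1 member higher at an unadjusted p under 0.05 was Hist2h2aa1, an H2A gene of the Hist2 cluster. It had 0.423, 1.17 and 1.36 FPKM in PBLI, against 0.330, 0 and 0.434 FPKM in control. The groups overlapped, and all its 150-base coding windows were shared with another member. Hist2h2aa1 reached 0.5 FPKM in PBLI libraries alone, so it was tested only through the group where it was high. The log2 fold change of Hist2h2aa1 was 0.96 ± 0.37 (SE, adjusted p = 0.22 by limma) and 1.06 ± 0.42 without Control 1 (adjusted p = 0.32).

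**Figure D4:**
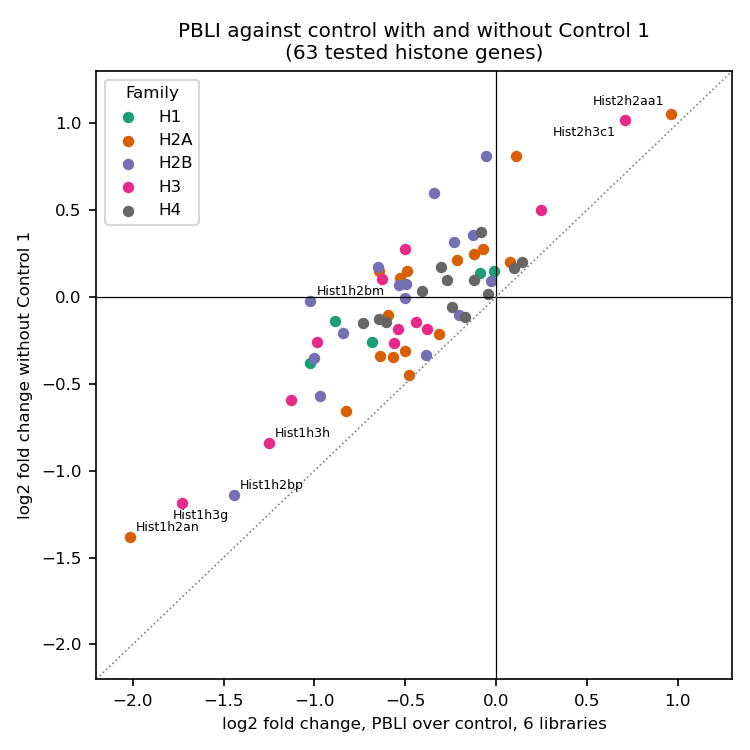
log2 fold change of PBLI over control for the 63 tested histone genes, with all 6 libraries (x axis) and without Control 1 (y axis), coloured by family; the dotted line marks equal values. Of the 63 genes, 56 lie left of 0 on the x axis and 32 lie below 0 on the y axis.

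By family, the log2 fold change was below 0 in 5 of 5 H1, 14 of 17 H2A, 16 of 16 H2B, 10 of 12 H3 and 11 of 13 H4 genes tested. Without Control 1 the counts were 3, 8, 8, 8 and 5. With all libraries, the H2A count includes Hist1h2ac, Hist1h2ai and Hist1h2ap and the H2B count Hist1h2ba, which passed the filter through control libraries alone. All of these lie in the Hist1 cluster. Without Control 1, the H2A count still includes Hist1h2ac and Hist1h2ap, and the H2B count Hist1h2ba. Family medians were -0.68, -0.49, -0.50, -0.55 and -0.24 with all libraries, and -0.14, 0.11, 0.03, -0.18 and 0.04 without Control 1. By cluster, 47 of 50 Hist1 members were below 0, with a median of -0.53, and 7 of 10 Hist2 members, with a median of -0.18. Without Control 1 the counts were 27 of 50 and 4 of 10, with medians of -0.06 and 0.16. Control 1 was at least 2 times the other libraries in 30 of 50 Hist1 members and in 1 of 10 Hist2 members. The 30 include Hist1h2ai and Hist1h2ap, which passed the filter through Control 1 alone.

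Members with and without shared sequence were also read apart. Among the 16 tested members with no 150-base coding stretch in common with another member, 14 were below 0, and without Control 1 the count was 7 of 16. Their medians were -0.21 with all libraries and 0.11 without Control 1, and Control 1 was at least 2 times the other libraries in 7 of the 16. For the 38 members that shared some stretches, 36 were below 0, without Control 1 the count was 21, and Control 1 was at least 2 times the other libraries in 24. The 36 include Hist1h2ac, Hist1h2ai and Hist1h2ba, which passed the filter through control libraries alone. Of these, Hist1h2ac and Hist1h2ba are also among the 21, and Hist1h2ai, which passed through Control 1 alone, is among the 24. For the 9 members with every window shared, 6 were below 0, without Control 1 the count was 4, and Control 1 was at least 2 times the other libraries in 1 (Hist1h2ap, which passed the filter through Control 1 alone). Hist1h2ap is also among the 6 and the 4.

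Many H2A and H2B genes stand head to head and start from a shared intergenic stretch, and 12 such pairs had starts 164 to 281 bases apart. In 9 pairs both genes were tested. Control 1 was at least 2 times every other library for both genes in 4 pairs, for 1 gene in 3 pairs and for neither in 2 pairs. The 4 pairs include 1 with Hist1h2ai, which passed the filter through Control 1 alone. For example, the ratio was 2.61 for Hist1h2ak and 3.14 for Hist1h2bn, which start 164 bases apart. In contrast, it was 2.67 for Hist1h2bf and 0.72 for its neighbour Hist1h2ad.

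Genes that act with histone supply were examined, from lists chosen with earlier results of these data known. No gene of the following lists passed an adjusted p of 0.05 by limma, with or without Control 1. Of 27 DNA replication genes, 25 had a log2 fold change below 0, against 52.9% of all genes. Without Control 1 the count was 20, against 52.4% of all genes. The median of the 27 was -0.49 with all libraries and -0.15 without Control 1. At an unadjusted p under 0.05, 4 were lower and none was higher, against 10.0% and 9.15% of all genes. Control 1 was the highest library in 26 of the 27, against 20.7% of all genes, and at least 2 times every other library in 7, against 1.88%. Rfc3, a subunit of the clamp loader, had 4.33, 3.95 and 4.73 FPKM in PBLI, against 13.1, 7.18 and 7.28 FPKM in control. Mcm2, a subunit of the replicative helicase, had 2.66, 2.85 and 3.10 FPKM in PBLI, against 7.05, 3.94 and 3.84 FPKM in control. In both genes every PBLI library was below every control library, a pattern met by 14.4% of all genes.

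All 15 mitosis genes had a log2 fold change below 0, with a median of -0.72, and without Control 1 the count was 8 and the median -0.04. Over all genes, 52.9% were below 0 with all libraries and 52.4% without Control 1. The mitosis list summed to 24.9, 31.1 and 24.5 FPKM in PBLI, against 158, 33.2 and 27.7 FPKM in control. Control 1 was at least 2 times every other library in 14 of the 15, against 1.88% of all genes. Mki67, a marker of cycling cells, had 3.07, 4.40 and 4.06 FPKM in PBLI, against 25.7, 5.45 and 4.60 FPKM in control. The 10 hub genes of the study, cell cycle genes that it chose on these samples and that are no independent evidence of direction, had a median of -1.03, and of -0.30 without Control 1. Control 1 was at least 2 times the other libraries in all 10, against 1.88% of all genes. Histone and cell cycle mRNAs were thus high in the same library, and the part of dividing cells in that pool was not tested.

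The machinery of histone mRNA formation showed smaller differences. Of 15 genes for 3′ end processing and decay, 5 were below 0, with a median of 0.10. Control 1 was the highest library in 3 of the 15, against 20.7% of all genes. Without Control 1, 4 of the 15 were below 0, with a median of 0.17. Their sums were 188, 195 and 196 FPKM in PBLI, against 199, 180 and 180 FPKM in control. The 12 genes of histone gene transcription had a median of -0.09, and 8 were below 0, and without Control 1 the median was -0.02 and the count 6. Control 1 was the highest library in 6 of the 12, against 20.7% of all genes, and at least 2 times every other library in 2, against 1.88%. Npat, the activator that cyclin E and CDK2 switch on at S phase entry, had 9.68, 10.2 and 9.66 FPKM in PBLI, against 11.0, 10.3 and 9.98 FPKM in control. Ccne2, a cyclin E, had 0.596, 1.41 and 1.75 FPKM in PBLI, against 5.67, 1.32 and 1.78 FPKM in control, 3.18 times the next library in Control 1. Pou2f1, which encodes OCT1, had 11.1, 13.2 and 9.29 FPKM in PBLI, against 14.2, 16.7 and 15.8 FPKM in control. Its log2 fold change was -0.47 ± 0.15 (SE, adjusted p = 0.16 by limma) and -0.53 ± 0.17 without Control 1 (adjusted p = 0.26).

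Replacement histones and histone chaperones were read next. Of 11 replacement histone genes, 8 were below 0, with a median of -0.17. Control 1 was the highest library in 7 of the 11, against 20.7% of all genes. It was at least 2 times the other libraries in 1, against 1.88% of all genes. The list summed to 629, 652 and 621 FPKM in PBLI, against 716, 622 and 644 FPKM in control. Without Control 1, 6 of the 11 were below 0, with a median of -0.05. H3f3a, which encodes H3.3, had 235, 257 and 196 FPKM in PBLI, against 259.7, 249 and 259 FPKM in control. Cenpa, the centromeric H3, was the 1 gene at least 2 times higher in Control 1, with 4.84, 3.78 and 2.19 FPKM in PBLI, against 11.5, 5.72 and 3.49 FPKM in control. The 15 chaperone genes had a median of 0.02, and 7 were below 0, and without Control 1 the median was 0.11 and the count 6. Control 1 was the highest library in 7 of the 15, against 20.7% of all genes, and at least 2 times every other library in 0. The chaperone list summed to 372, 377 and 391 FPKM in PBLI, against 431, 350 and 353 FPKM in control. Chaf1a, the large subunit of the CAF-1 complex that loads new histones behind the fork, had 1.43, 1.55 and 1.84 FPKM in PBLI, against 3.65, 2.06 and 1.86 FPKM in control.

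**Figure D5:**
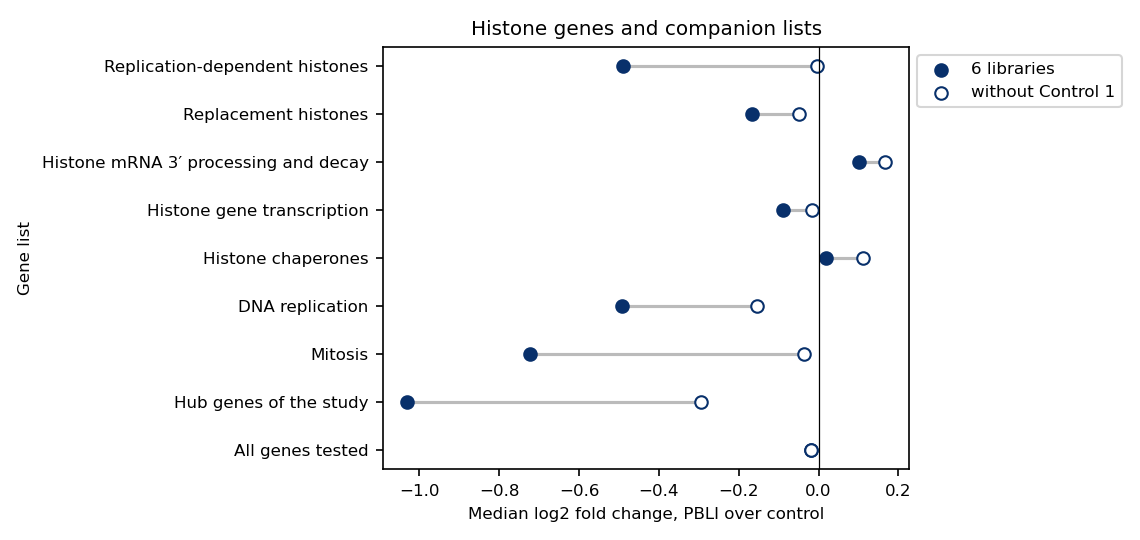
Median log2 fold change of PBLI over control for the histone genes, the companion lists and all genes tested, with all 6 libraries (filled) and without Control 1 (open). The histone median moves to -0.0029 without Control 1, against -0.49 with it, and the mitosis median to -0.04, against -0.72.

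Other measures that could move with these values were read in the same libraries. Lung markers were high throughout, and Sftpc, a surfactant protein of alveolar type 2 cells, had at least 6870 FPKM in every library. Neutrophil markers summed to 2238, 1921 and 366 FPKM in PBLI, against 276, 164 and 253 FPKM in control, so PBLI G5 stood nearer to the control libraries. All 6 markers were higher in PBLI at an unadjusted p under 0.05 by limma, against 9.15% of all genes. Their median log2 fold change was 2.35, and 2.41 without Control 1. At the adjusted threshold 1 of 6 (Mmp8) rose, against 1.15% of all genes. None did without Control 1, against 0.271% of all genes. B cell markers summed to 42.2, 59.7 and 15.0 FPKM in PBLI, against 58.2, 89.2 and 54.6 FPKM in control, and all 5 had log2 fold changes below 0, with and without Control 1. Among erythroid genes, Alas2, the first enzyme of heme synthesis in red cell precursors, had 25.2, 26.6 and 32.6 FPKM in PBLI, against 62.0, 34.2 and 28.0 FPKM in control. Alas2 was thus highest in Control 1, at 1.81 times the next library. Tfrc, the transferrin receptor, had 27.7, 29.9 and 25.8 FPKM in PBLI, against 30.6, 26.0 and 26.0 FPKM in control, and was also highest in Control 1. Epor, the erythropoietin receptor, had 0.381, 0.557 and 0.352 FPKM in PBLI, against 0.626, 0.503 and 0.813 FPKM in control. Klf1, a transcription factor of erythroid cells, had 0.311 FPKM in PBLI G4 and was listed at 0 in the other 5 libraries. The part of these cell types in the histone values was not tested.

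RNAs with at least 1 form that lacks a canonical poly(A) tail were compared because rRNA depletion keeps them, as it keeps histone mRNAs. Rn7sk, the 7SK RNA, had 69059, 61288 and 60633 FPKM in PBLI, against 49022, 52272 and 63771 FPKM in control. Rpph1, the RNA of RNase P, had 10687, 10144 and 10423 FPKM in PBLI, against 9413, 10737 and 9773 FPKM in control for the Ensembl transcript. Both were lowest in Control 1. However, the RefSeq transcript of Rpph1 had 664, 718 and 716 FPKM in PBLI, against 715, 992 and 957 FPKM in control, and was lowest in PBLI G3. Malat1, summed over its Ensembl transcripts, had 10176, 9071 and 7674 FPKM in PBLI, against 11542, 9291 and 10915 FPKM in control, and was highest in Control 1. Over 9 sums of 5 such RNAs by annotation, with Neat1 and Rmrp, Control 1 was lowest in 6 and highest in 1. The 6 include both sums of Neat1, whose forms with and without a tail were not told apart. Neat1 had 139, 134 and 153 FPKM in PBLI, against 59.7, 84.8 and 70.4 FPKM in control, for Ensembl. For RefSeq it had 670, 614 and 546 FPKM in PBLI, against 380, 417 and 521 FPKM in control. The part of library preparation in the histone values was not tested.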

How the data were processed

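Total RNA of 6 lung libraries was sequenced as paired reads. According to the methods of the study, reads were trimmed with cutadapt, aligned with hisat2 and quantified with cuffdiff on the Ensembl annotation. The mRNA table as deposited by the authors holds FPKM per gene, and the lncRNA table FPKM per transcript. The 24 other columns of per-sample values and any fold changes or p-values of the authors were not used. The PBLI columns carry G3, G4 and G5 in place of sample numbers, so they were assigned by group.

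FPKM values at 0.5 or more in at least 1 library were tested as log2(FPKM + 0.5) by limma (3.58.1) with a mean-variance trend, and p was adjusted by Benjamini and Hochberg's method over 14760 genes. A fold change on this scale understates the change of low genes. The unadjusted thresholds are those of the study. The alternatives were other pseudocounts, filters and scalings, limma without trend or with robust variance, and leaving out each library. Sample weights were added after the data were seen. Tests were tried on simulated data. The tools were pysam (0.24.0), matplotlib (3.10.9), R (4.3.3) and pandas (2.3.3) on Python (3.11.15).

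Coordinates and sequences are from RefSeq on GRCm38.p6, matched by NCBI gene number for 67 of 68 members. The members and lists were chosen with earlier results of these data known. The erythroid precursor list is not reported here as a whole. Named members are, for each family, the 3 of highest mean FPKM, those past either threshold and Hist1h2bp; of each companion list, called genes and up to 4 of smallest p. Others are named to show the range and were chosen after their values were seen.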

Additional observations from a re-analysis of the deposited data

How the results depend on the processing

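The absence of called members at an adjusted p under 0.05 held under every alternative except limma with sample weights, which called 2 members lower, Hist1h3g (-1.81, adjusted p = 0.027) and Hist1h3h (-1.34, adjusted p = 0.038), and 1 DNA replication gene. With sample weights, 529 of all 14760 genes were called lower and 644 higher, against 137 and 170 without weights. The 2 calls are therefore no result about the members. At a fold change of 2 and an unadjusted p of 0.05, the count of lower members was 3 to 9 when each library was left out in turn, against 4 in the report. The count of higher members was 1 with a pseudocount of 0.1, with quantile normalization and with sample weights, against 0 in the report, and 0 to 1 when each library was left out. The share of all genes at these thresholds was 1.17% lower and 1.38% higher with all libraries. Without Control 1 it was 1.17% and 1.23%. It is not given for the other settings, so their counts cannot be read as a result about the members. The count of members with a log2 fold change below 0 was 32 to 58 of 63 when each control library was left out, with 32 without Control 1, and 49 to 59 when each PBLI library was left out. The median log2 fold change ranged between -0.67 (without Control 3) and -0.0029 (without Control 1). The ratio of summed FPKM ranged between 0.703 (without Control 2) and 1.07 (without Control 1). Other scalings and pseudocounts left 54 to 56 members below 0. The tests edgeR and DESeq2 had been planned only for whole-number read counts in columns that match the samples, and were not run because the PBLI count columns match their group alone and the count columns were not used here. No paired analysis was possible because the columns of the PBLI libraries carry G3, G4 and G5 rather than the replicate numbers of the labels. The study also describes no pairing of control with PBLI pools, and its mice were divided into the groups at random. Equal replicate numbers in the labels are therefore not taken as pairs. Members at low FPKM rest on few fragments, and values of copies with shared sequence depend on how reads were assigned.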

Other observations

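Members also differed by the length of their longest coding transcript in GENCODE, where 55 of the tested members were matched, and the limit of 1000 nt was chosen after the values were seen. In 13 members with a transcript over 1000 nt, Control 1 was at least 2 times every other library in 1 (Hist1h1d), and Control 1 minus the median of the others had a median of 0.36 (log2). In 42 members with transcripts up to 1000 nt, Control 1 was at least 2 times every other library in 25, and that median was 1.496. The 25 include Hist1h2ai and Hist1h2ap, which passed the filter on low values through Control 1 alone. PBLI G5 was the lowest library in 10 of the 13 and in 12 of the 42. The longer group included Hist1h1c, Hist1h2bc, Hist2h2be and Hist4h4, and Hist2h2be had 4.49, 3.86 and 1.86 FPKM in PBLI, against 4.70, 3.67 and 4.76 FPKM in control. The part of the authors' gene models in this difference was not tested.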
